A study of Mus musculus with 36 samples.

Results

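The differentiation of Xmas mouse embryonic stem cells (mESCs) was followed in the cultures labelled double. These are female C57/Bl6 cells in which the Hprt locus of one X carries GFP and that of the other X carries mCherry. Culture began in 2i and LIF and was changed in steps to serum medium lacking LIF, with no factor added to direct the cells to a particular lineage. The 8 libraries compared here are those of the double cultures on days 1 and 2 (early, 4 libraries) and on days 7 and 8 (late, 4 libraries), of 36 libraries in the series. Each day gave 1 library from line X14 and 1 from line X18, so the libraries come from 2 lines only, and nothing in the labels says that the days of a line were separate cultures. The p-values therefore measure the spread between days within 2 lines. For late against early it includes steps between the 2 days of a period that both lines shared. It also includes any difference of the lines in the change. What double and single stand for is not given in the labels, so both words serve only as names. Genes were taken on chromosomes 1 to 19, which gave 24483 of the 25965 genes in the table, and 12211 of these reached at least 1 RPM (reads per 1e+06 reads of the library) in at least 4 of the 8 libraries and were tested.

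mESCs in 2i and LIF are held in the naive state, which corresponds to the inner cell mass of the blastocyst and is kept by a network of transcription factors around Pou5f1 (OCT4), Sox2 and Nanog. When the inhibitors and LIF are withdrawn, the naive factors are turned off, and the cells pass through a formative and a primed state, known for genes such as Fgf5, Otx2 and Pou3f1, before they take up the fates of the embryo. In serum, without added lineage factors, such cultures can hold epithelial, mesodermal and endodermal cells side by side. In bulk RNA, fewer cells of a type and less RNA per cell cannot be told apart.

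The 8 libraries held 856953 to 2336472 reads in genes, and a floor of 3 reads corresponded to 1.13 to 2.99 RPM. On the same day the libraries of X14 and X18 differed by more than sampling noise, with a chi-square per gene of 3.68 to 11, so they were not 1 library deposited more than once. Summed levels of the mESC markers Pou5f1, Nanog, Sox2, Zfp42 and Esrrb were 4180 to 5184 RPM early and 252 to 699 RPM late, so the early libraries carried the markers of mESCs. Late sums for markers of other cells were far below those of the mESC markers, and had changed from the early libraries. The 5 endoderm markers summed to 0 to 0.753 RPM early and 2.61 to 14 RPM late, and Afp and Ttr had no read. The 4 trophoblast markers summed to 2 to 6.7 RPM early and 22 to 44.7 RPM late. Nearly all of the late sum was Gata3, while Tpbpa and Prl3d1 had no read. The 6 markers of heart, blood and endothelium summed to 69.7 to 155.5 RPM early and 11.1 to 25 RPM late. Nearly all of the late sum was Pecam1, and Nkx2-5, Tnnt2, Hbb-y and Hba-x had no late read. The 3 neural markers summed to 136 to 211 RPM early and 10.3 to 36.9 RPM late, most of it Tubb3, and Sox1 had no late read. The 5 fibroblast markers, of which S100a4 had no read, summed to 16.3 to 41.5 RPM late and to 1.41 to 7.66 RPM early.

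The comparison of late with early libraries asks which autosomal genes changed as the double cultures left the naive state. Keratins, the imprinted genes H19 and Igf2 and actin-binding proteins were among the largest rises, and genes of the naive state and of the germline among the largest falls. A gene was called changed at an adjusted p under 0.05 and a log2 fold change of at least 1 either way, in a model with the line as a term. By this rule 4613 genes were called, 37.8% of those tested, with 3070 higher late (25.1%) and 1543 lower late (12.6%). Of the called genes 805 rose and 266 fell by a log2 fold change of at least 3. The early and late libraries did not overlap in 4071 of the 4613 called genes, against 44.7% of all genes tested. Quantile normalization gave 4393 calls, of which 50.53% were higher, against 66.55% as deposited, and removal of the trend of fold change with exon length gave 4523 calls, of which 55.74% were higher. The median log2 fold change over all genes tested was 0.19 as deposited, -0.06 after quantile normalization and -0.02 after removal of the length trend, and values below are as deposited and are to be read against 0.19.

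The largest rise was that of H19. This imprinted noncoding RNA of chromosome 7 (142575529 to 142578143, minus strand, mm10) was measured early at 2.82, 6.78, 2.99 and 7.66 RPM in X14 day 1, X14 day 2, X18 day 1 and X18 day 2, and late at 12700, 20060, 12660 and 25880 RPM in X14 day 7, X14 day 8, X18 day 7 and X18 day 8. All late libraries lay far above all early ones, and day 8 exceeded day 7 in both lines. The log2 fold change was 11.86 ± 0.36 (SE), adjusted p = 2.05e-09, and no other autosomal gene tested rose as far. H19 alone took 1.43% to 2.9% of all late reads in genes, and the 10 highest genes took 6.2% to 7.12% late against 4.07% to 4.48% early.

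Krt8 (10.15 ± 0.30) and Krt18 (10.08 ± 0.47), partners in the keratin filaments of simple epithelia, and Igf2 (9.76 ± 0.33), a growth factor imprinted together with H19, followed on the log2 scale. Krt7, a further keratin, rose by 8.61 ± 0.48. Igf2 was measured early at 2.82, 1.51, 0 and 0 RPM and late at 1283, 2648, 524 and 1036 RPM, in the same order of libraries. The late libraries of X14 were the higher ones on both days. Car4, a membrane-bound carbonic anhydrase, had 2 early reads and 2019 late reads, a ratio of 989.9 (95% counting interval 274 to 8180). Gbp2, an interferon-induced GTPase, had no early read and 163 to 191 RPM late, at least 357-fold higher against a floor of 3 reads over the early group. Slc40a1, the iron exporter ferroportin, went from 1 read to 1276 and Tagln, the actin-binding transgelin, from 1 read to 1132. Prss8, a membrane serine protease, rose by 7.80 ± 0.41, Gsn, the actin-severing gelsolin, by 7.62 ± 0.42 and Anxa5, a phospholipid-binding annexin, by 7.25 ± 0.44 on the log2 scale. Only genes whose early and late libraries did not overlap were named here. The rise of these 12 genes in both lines was therefore set by the choice.

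Among the largest falls were genes of the naive state and of the germline. Jam2, a junctional adhesion molecule, was measured at 251, 186, 226 and 160 RPM early and at 1.5, 0.519, 1.71 and 0 RPM late, a log2 fold change of -7.65 ± 0.43 (adjusted p = 2.46e-07). Dazl, an RNA-binding protein of germ cells, was at 387, 239, 307 and 223 RPM early and at 3.5, 1.56, 5.14 and 4.35 RPM late, -6.41 ± 0.34. In both genes the day 1 libraries were the highest. Pramel6 had 301 early reads and none late, at least 102-fold lower, and its neighbour Pramel7, of the same family on chromosome 2, went from 539 reads to 1, so the split of reads between these related genes is uncertain. H2-M5, an MHC class I-like gene, went from 509 reads to 1, A2m, a protease inhibitor, from 598 to 3, and Mep1b, a metalloprotease subunit, from 567 to 3. Tex19.2 fell by 6.40 on the log2 scale, the homeobox gene Obox6 by 6.19 and Gm13225 by 5.94. Tcl1, a co-activator of AKT, changed by -6.10, with -6.88 without X18 day 7 and -5.50 without X18 day 8, and Gm20697, which overlaps Tcl1 on the other strand, changed by -5.96. Since the strand of counting is not stated their reads cannot be told apart. The plot of these 24 genes by library shows the split between the periods, which the choice of genes required in each line.

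**Figure D1:**
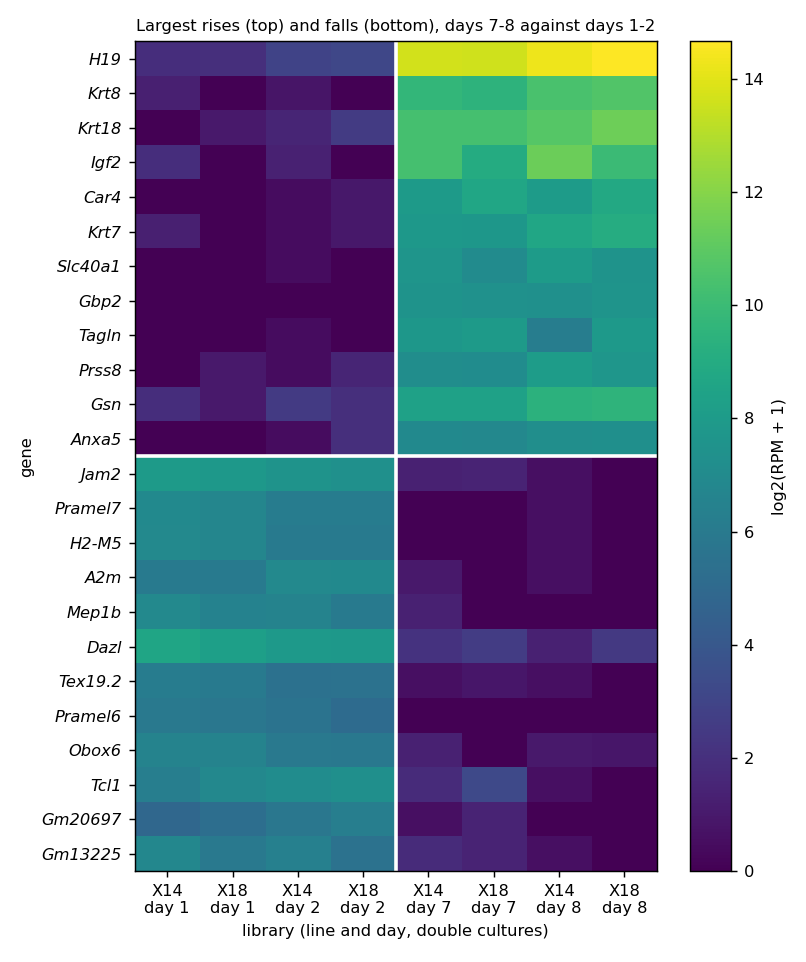
Levels of the 12 genes with the largest rise (top block) and the 12 with the largest fall (bottom block) in the 8 double libraries, as log2(RPM + 1) in colour, with genes as lines and libraries as columns. H19 is near 3 RPM in the early libraries of day 1 and between 12660 and 25880 RPM late, while Pramel6 has no read in the 4 late libraries.

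The genes were then grouped in 21 lists of lineages, structures and pathways, drawn up from knowledge of the field. A gene without early reads could be tested only if all 4 late libraries reached 1 RPM, so that such a gene had to differ. This held as well for a gene with early reads where no early library reached 1 RPM, and in reverse for falls. Of the genes tested 304 had no read in one of the periods. Counts over tested members are therefore a description, beside 37.8% called and a median of 0.19 over all genes tested. The list medians ran from 5.17 for trophoblast and surface ectoderm, 3.496 for primitive streak and mesoderm and 3.46 for contractile actin and smooth muscle to -2.21 for germline and meiosis and -3.15 for core and naive pluripotency. The median of the contractile list was 2.67 to 2.80 without any 1 of the 4 late libraries, since Acta1, Acta2, Cnn1 and Tagln, with 1 early read or none, were then not tested, and that of the germline list was -2.89 after quantile normalization.

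Of 27 tested genes of core and naive pluripotency, 24 fell, 1 rose and 2 were not called. Nanog, a core factor of the naive network, was measured early at 2955, 1843, 2315 and 1651 RPM and late at 147, 73.2, 154 and 70.5 RPM, a log2 fold change of -4.36 ± 0.30 (adjusted p = 8.82e-07). Pou5f1, the POU factor at the centre of the network, was at 1329, 1126, 1532 and 1429 RPM early and at 256, 82.5, 415 and 164 RPM late, -2.79 ± 0.36. Day 8 was below day 7 for both genes in both lines. Sox2, the partner of OCT4, fell by 3.15, the orphan receptor Esrrb by 3.64 and Zfp42 (Rex1), a marker of the naive state, by 2.31 on the log2 scale. Larger falls were seen in Prdm14 (-5.87 ± 0.39), a repressor that guards the naive state, Tdh (-5.45 ± 0.78), a threonine dehydrogenase of mESC metabolism, Nr5a2 (-5.01 ± 0.40), an orphan receptor, and Fgf4 (-4.64 ± 0.51), the FGF ligand that mESCs make themselves. Without X18 day 8 the change of Tdh was -4.31 and that of Fgf4 -4.05, and without X18 day 7 that of Tdh was -6.16. The single rise of the list was Lin28a, an RNA-binding protein that blocks let-7 maturation, from 18.3, 95.7, 26.9 and 68 RPM to 361, 216, 330 and 227 RPM, 2.71 ± 0.45 (adjusted p = 4.02e-04). Sall4 (-0.38 ± 0.20) and Utf1 (-0.45 ± 0.32) were not called.

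The start of Nanog is shown because its list moved together. The 300 bases from 250 before to 50 after the RefSeq start (GRCm38.p6, chr6:122707239-122707538, plus strand) hold in capitals a match to a composite Oct-Sox motif, TTGCAT followed by any base and ACAA, searched on both strands. Such a match was found in 0.0971% of 25748 autosomal promoters of the table and in 0.071% of 8448 promoters of genes tested. It was found in 0.29% of 1034 promoters of genes called lower and in 0.0469% of 2133 promoters of genes called higher, which are 3 and 1 promoters. Among 15 promoters of the pluripotency list only that of Nanog held a match (6.67%). The search covered this exact motif in 300 bases of promoters for 15 of the 27 genes. Whether the list shares an Oct-Sox site was therefore not tested. The motif was chosen after values or sequences had been seen, so the match in Nanog is a description.
Nanog: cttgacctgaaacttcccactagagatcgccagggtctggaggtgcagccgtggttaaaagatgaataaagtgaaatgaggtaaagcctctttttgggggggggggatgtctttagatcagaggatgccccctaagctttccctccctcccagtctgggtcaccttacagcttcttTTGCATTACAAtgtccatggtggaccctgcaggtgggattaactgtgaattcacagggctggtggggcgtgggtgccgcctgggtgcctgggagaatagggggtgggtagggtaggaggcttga

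The formative and primed list was split, with 7 of 16 tested genes higher, 6 lower and 3 not called (median 0.85). Fgf5, the classical marker of the post-implantation epiblast, had no early read and was at 38, 23.9, 32.6 and 43.5 RPM late, at least 68.6-fold higher. Fgf8, an FGF ligand of the gastrulating embryo, also had no early read and was at 40, 20.2, 24 and 22.6 RPM late, at least 56.55-fold higher. As neither gene had an early read, both could be tested only if all 4 late libraries reached 1 RPM, so their periods could not overlap. Sox4, an SRY-box factor, rose by 3.69 ± 0.51 and Pou3f1 (OCT6), a POU factor of the epiblast, by 3.12 ± 0.32 on the log2 scale. Foxd3, a forkhead factor needed by the epiblast, had 134 early reads and none late, at least 45.55-fold lower, and Lef1, a nuclear partner of beta-catenin, changed by -4.01 ± 0.64. Dnmt3b, the de novo DNA methyltransferase of the epiblast, was 0.91 ± 0.40 with adjusted p = 0.078 and was called only without X14 day 2 (1.30) or without X18 day 2 (1.13).

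Of the primitive streak and mesoderm genes 11 of 24 in the table were tested, and 7 were higher, none was lower and 4 were not called. Hand1, a factor of lateral mesoderm and of trophoblast giant cells, had no early read and was at 45, 104, 40.3 and 73.1 RPM late, at least 138-fold higher. T (brachyury), the marker of the primitive streak, had no early read and was at 46, 34.3, 11.1 and 15.7 RPM late, at least 61.8-fold higher, with both X14 libraries above both X18 libraries. Msx2, a homeobox target of BMP, went from 2 reads to 237, a ratio of 116 (95% counting interval 31.8 to 965). Pdgfrb, a PDGF receptor, was at least 26.15-fold higher, Bmp4, a ligand, rose by 4.15 ± 0.45 on the log2 scale, and Tbx20, a T-box factor, went from 2 reads to 65. Eomes, a T-box factor of streak and endoderm, was not called (0.49 ± 0.56) and was -0.30 after quantile normalization and -0.06 without X14 day 7. Among members under the filter were Mesp1, Msgn1, Hand2 and Prrx1, which had no read in the 8 libraries. The list median of 3.496 was 0.08 to 0.49 when 1 late library was left out, since T, Hand1, Msx2, Pdgfra, Pdgfrb and Tbx20, with 0 to 2 early reads each, were then no longer tested.

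Endoderm genes gave no single direction. Of 13 endoderm factors 5 were tested, with 3 higher and 2 lower. Dab2, an endocytic adaptor of primitive endoderm, went from 2 reads to 138, a ratio of 67.7 (95% counting interval 18.4 to 564), and Foxa2, a forkhead factor, from no read to 10, 5.71, 4.28 and 1.74 RPM, at least 12.4-fold higher. Prdm1 (1.12 ± 0.42, adjusted p = 0.042) was not called after scaling to the 75th percentile, quantile normalization or removal of the length trend, nor without X14 day 1 (0.87), X14 day 2 (1.02), X14 day 7 (0.98), X14 day 8 (0.91) or X18 day 1 (1.23). Hhex fell by 2.90 on the log2 scale, and Sox7 had 35 early reads and none late, at least 11.9-fold lower. Among the transport genes of visceral endoderm 7 of 20 were tested, and Car4, the zinc transporter Slc39a8 (no read to 153 reads, at least 50.01-fold higher) and the receptor megalin, Lrp2, were higher. Lrp2 rose by 4.34 ± 0.73, or by 3.54 without X14 day 1 and 5.17 without X14 day 2. The apolipoprotein genes Apom (at least 28.2-fold lower) and Apoa2 (-2.61 ± 0.49) fell, and Afp, Ttr, Alb and Apoa1, which define the visceral endoderm list, had no read in the 8 libraries. The median of the endoderm factors, 1.12, went below 0 when 1 late library was left out, since Dab2 and Foxa2 were then no longer tested.

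Neural and cardiovascular genes were mostly under the filter. Of 16 neural genes 6 were tested. Tubb3, a neuronal tubulin, was at 123, 195, 150 and 157 RPM early and at 19, 26, 3.43 and 18.3 RPM late, -3.54 ± 0.46 (adjusted p = 6.71e-05), and -2.91 without X18 day 7. Mtap2 was -1.66 ± 0.51 and was not called without X14 day 7 (-1.47), X18 day 1 (-1.51) or X18 day 8 (-1.46). Nes, an intermediate filament of progenitors, was 1.14 ± 0.37 (adjusted p = 0.021) and was not called after quantile normalization, after removal of the length trend, without X14 day 1 (0.85) or without X14 day 7 (0.81). Pax6 was not called (-0.76 ± 0.43), but was called lower after quantile normalization (-1.66) and after removal of the length trend (-1.41). Of 21 heart, blood and endothelial genes 5 were tested, and Pecam1 and Tek, expressed by endothelium and, for Pecam1, also by naive mESCs, fell by 2.85 and 2.77 on the log2 scale. Tie1, an endothelial receptor, rose from 4 reads to 32 (2.39 ± 0.46), and Myl7, an atrial myosin light chain, fell from 18 reads to 3. Myl4, a myosin light chain, was 2.44 ± 0.90 and was not called after quantile normalization, removal of the length trend, voom weighting, or without X14 day 1 (1.92), X14 day 8 (1.90), X18 day 2 (2.23) or X18 day 8 (1.65), and was 3.46 without X18 day 7.

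The trophoblast and surface ectoderm list held 9 tested genes of 17 in the table, of which 7 rose, none fell and 2 were not called. Its highest members were the keratins of simple epithelia, which are expressed in many embryonic epithelia. Krt8 was measured early at 1.41, 0.753, 0 and 0 RPM and late at 837, 1401, 713 and 1640 RPM. Krt18 was at 0, 1.88, 0.998 and 4.79 RPM early and at 1271, 1741, 1268 and 2758 RPM late. Day 8 exceeded day 7 for both partners in both lines, and the early libraries were at or near the floor. Per length the late means were 636 RPKM for Krt8 and 1257 RPKM for Krt18 (RPKM, RPM per kilobase of exon), against 0.299 and 1.37 RPKM early. Krt19 rose by 6.40 ± 0.41, and the zinc-finger factors Gata2 and Gata3, which act in trophoblast and other tissues, by 5.17 ± 0.61 and 3.27 ± 0.51 on the log2 scale, with Gata2 at 5.85 without X18 day 7. Tead4 (0.55 ± 0.29) and Tfap2c (0.41 ± 0.25), factors of the trophoblast lineage, were not called, and the trophoblast genes Elf5, Tpbpa and Prl3d1 had 0 to 2 late reads, so the rises of this list were those of keratins, GATA factors and Ascl2.

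Krt8 and Krt18 lie next to each other on chromosome 15 and are transcribed away from each other. Their starts are shown because both genes went from 11 early reads or fewer to 7089 late reads or more, and capitals mark TATAAA, searched on both strands. Krt8 (chr15:102004293-102004592, minus strand) holds 2 overlapping matches, 1 on each strand, and Krt18 (chr15:102027966-102028265, plus strand) holds none. TATAAA was found in 14.2% of all autosomal promoters of the table, in 6.46% of promoters of genes tested, in 7.13% of promoters of genes called higher and in 9.86% of those called lower.
Krt8: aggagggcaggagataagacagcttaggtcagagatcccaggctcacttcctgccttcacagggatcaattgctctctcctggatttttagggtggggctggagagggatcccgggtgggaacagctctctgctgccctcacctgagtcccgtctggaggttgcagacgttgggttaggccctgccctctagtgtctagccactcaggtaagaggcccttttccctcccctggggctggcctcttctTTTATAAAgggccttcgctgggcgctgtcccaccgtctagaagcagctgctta
Krt18: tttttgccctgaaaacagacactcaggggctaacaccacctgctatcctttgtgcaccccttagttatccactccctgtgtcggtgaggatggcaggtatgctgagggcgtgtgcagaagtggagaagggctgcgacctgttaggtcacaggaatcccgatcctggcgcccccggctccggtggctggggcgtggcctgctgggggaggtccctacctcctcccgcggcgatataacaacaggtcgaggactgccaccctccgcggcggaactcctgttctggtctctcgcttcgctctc

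In the list of cadherins and of the epithelial to mesenchymal transition (EMT), 9 genes were higher, 2 lower and 2 not called of 13 tested (17 in the table). Cldn7, a claudin of tight junctions, was at 0.704, 1.51, 2.99 and 0 RPM early and at 103, 153, 127 and 170 RPM late, 6.72 ± 0.40 (adjusted p = 3.19e-07). Cldn6 rose by 6.50 ± 0.47 on the log2 scale (5.85 without X14 day 1), with all late libraries at 222 RPM or above and all early ones at 6.7 RPM or below. Esrp1, a splicing regulator of epithelia, rose by 5.15 ± 0.74, with 4.52 without X14 day 1, 5.82 without X14 day 2, 4.48 without X18 day 1 and 5.78 without X18 day 2. Cdh1, which encodes E-cadherin and is present in mESCs too, rose from 235, 436, 357 and 370 RPM to 1175, 1422, 912.6 and 1044 RPM, 1.72 ± 0.22. Zeb1, a repressor of epithelial genes that induces EMT, fell by 4.16 ± 0.53, and Vim (vimentin), a filament of mesenchymal cells, by 1.86 ± 0.27 on the log2 scale. Snai1, another factor known for inducing EMT, went from 3 reads to 68, a ratio of 22.2 (95% counting interval 7.29 to 110.5), and the ligand Tgfb2 from 2 reads to 56. Cdh2, which encodes N-cadherin, was not called at -0.15 ± 0.66, and its sign changed with the processing.

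Matrix genes rose in 11 of 20 tested and fell in 3. Thbs1, Col1a2 and Col6a1, with 0 to 3 early reads, passed the filter only through the late libraries and had to rise. Thbs1 (thrombospondin) went from 3 reads to 602, a ratio of 197 (95% counting interval 67 to 957), and Col1a2, a chain of fibrillar collagen, had no early read and 20.5, 33.8, 11.1 and 25.2 RPM late, at least 48.4-fold higher. Col6a1 was at least 14.7-fold higher. Lamb1, a laminin chain of basement membranes, rose by 3.61 ± 0.50 (3.02 without X14 day 1) and Col5a1 by 3.28 ± 0.49 on the log2 scale. Spp1 (osteopontin), a secreted glycoprotein of mESCs and other cells, was at 1751, 1498, 1744 and 1723 RPM early and at 69.5, 19.7, 81.4 and 33.9 RPM late, -5.25 ± 0.36. Col1a1, the partner chain of Col1a2, was not called (1.19 ± 0.66) and was called only without X18 day 2 (1.72) or X18 day 7 (1.76).

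Of 14 contractile and actin-binding genes tested, 13 rose, none fell and 1 was not called. Acta1, Acta2, Cnn1 and Tagln, with 1 early read or none, passed the filter only through the late libraries and had to rise. Tagln was at 0, 0.377, 0 and 0 RPM early and at 217, 72.7, 250 and 232 RPM late, a ratio of 1110 (95% counting interval 199 to 43880), with X14 day 8 the lowest of the late libraries. The smooth muscle actin Acta2 had no early read and 32.5, 18.2, 24.9 and 23.5 RPM late, at least 50.99-fold higher, and the skeletal actin Acta1 had no early read and 23.5, 9.86, 21.4 and 18.3 RPM late, at least 36.6-fold higher. Both actins were lowest late in X14 day 8, as Tagln was. Tpm2, a tropomyosin, rose by 5.98 ± 0.51, Cnn2, a calponin, by 4.38 ± 0.29 and Tpm1 by 3.81 ± 0.19 on the log2 scale. Actb, the cytoplasmic actin, was not called, with 2146 to 3815 RPM early and 2349 to 2635 RPM late.

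The start of Acta1 (chr8:123894726-123895025, minus strand) is shown because its list moved together and because the CArG box, the site of serum response factor, is known from promoters of actin genes. Capitals mark the CArG box, TATAAA and GGGCGG, each searched on both strands. The window holds 1 CArG box, 1 TATAAA and 2 GGGCGG. A CArG box was found in 4 of 13 promoters of the contractile list (30.8%), namely Acta1, Actc1, Cnn2 and Myl9, in 1.51% of all autosomal promoters of the table, in 1.23% of promoters of genes tested, in 1.41% of promoters of genes called higher and in 1.26% of those called lower.
Acta1: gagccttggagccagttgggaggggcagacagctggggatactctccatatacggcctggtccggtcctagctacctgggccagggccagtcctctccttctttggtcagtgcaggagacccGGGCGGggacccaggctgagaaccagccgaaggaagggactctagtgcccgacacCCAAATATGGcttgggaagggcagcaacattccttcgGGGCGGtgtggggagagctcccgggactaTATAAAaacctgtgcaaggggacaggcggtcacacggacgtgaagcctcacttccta

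Imprinted genes, which are expressed from 1 parental copy and of which many act in growth of embryo and placenta, were higher late in 12 of 20 tested, lower in 1 and not called in 7. Peg10, a gene of retrotransposon origin, was at 30.3, 193, 36.9 and 110 RPM early and at 8080, 15630, 4316 and 5968 RPM late, 6.76 ± 0.52 (6.13 without X14 day 1), and took 0.493% to 1.72% of late reads in genes. Its neighbour Sgce, a sarcoglycan, rose by 4.02 ± 0.37 on the log2 scale. Nnat rose by 5.27 ± 0.50 (5.86 without X14 day 2) and Cdkn1c, an inhibitor of the cell cycle, by 4.98 ± 0.49, with late values of 120, 391, 74.5 and 412 RPM that were higher on day 8 in both lines. Plagl1, a zinc-finger factor known as a regulator of other imprinted genes, was the 1 member that fell, by 2.34 ± 0.29 on the log2 scale. Airn, an RNA antisense to Igf2r, had no early read and 28 late reads, and as counting was not stated to use strand, its reads cannot be told apart from those of Igf2r. With the zero-read gene at its bound, the list median was 2.51 in place of 2.29. Of 10 genes of DNA methylation, the dioxygenase Tet3 rose by 2.11 ± 0.42, and Tet2 and Tet1, enzymes of the same family, fell by 2.97 ± 0.45 and 2.22 ± 0.44 on the log2 scale. The other 7 were not called, among them Dnmt3a (0.71 ± 0.33).

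Germline and meiosis genes, of which many are methylated and silent in somatic cells, fell in 12 of 17 tested, rose in 2 and were not called in 3. Hormad1, a protein of the meiotic chromosome axis, was at 291, 135, 177 and 126 RPM early and at 12, 6.75, 6.86 and 1.74 RPM late, -4.94 ± 0.42. Tdrd12, a tudor protein of the piRNA pathway, fell by 4.34 ± 0.46 (3.73 without X14 day 8), Stra8, a gene of meiotic entry, by 4.09 ± 0.41 and Smc1b, a meiotic cohesin, by 3.48 ± 0.73 on the log2 scale. Smc1b fell by 4.15 without X18 day 7 and by 2.49 without X18 day 8. Asz1, also of the piRNA pathway, had 61 early reads and none late, at least 20.7-fold lower. The meiotic cohesin Rec8 and Sycp3, a part of the synaptonemal complex, rose by 2.41 ± 0.30 and 2.15 ± 0.43 on the log2 scale.

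Genes of 3 signalling pathways moved in both directions. Among targets and feedback genes of FGF and ERK, 8 of 15 tested rose and 4 fell. Fos, an immediate early factor, went from 0, 2.64, 0 and 0 RPM to 13, 34.8, 16.3 and 39.2 RPM, 4.44 ± 0.53, and the phosphatases of the pathway rose, with Dusp4 at 3.68 ± 0.46, Dusp6 at 2.79 ± 0.43 and Dusp5 at 2.17 ± 0.26. The ETS factors Etv4 (-3.61 ± 0.58, and -4.23 without X14 day 1) and Etv5 (-2.41 ± 0.32), which are known as FGF targets as well, fell. Of the BMP and TGF-beta genes 5 of 9 rose and 2 fell. Id1, an inhibitor of differentiation induced by BMP, was at 0, 3.01, 0 and 1.92 RPM early and at 20.5, 32.2, 26.6 and 51.4 RPM late, 4.52 ± 0.48. Bmp7, a ligand, rose by 3.29 ± 0.37, Id3 by 2.07 ± 0.49 and Id2 by 1.89 ± 0.46, while Gdf15, a stress-induced ligand of the family, fell by 3.46 ± 0.51 on the log2 scale. Smad6, an inhibitor of the pathway, was -1.32 ± 0.43 and was not called without X14 day 2 (-0.99), X14 day 7 (-1.10) or X18 day 8 (-1.26).

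Of the Wnt genes 6 of 11 rose and 3 fell. Wnt3, Sp5 and Nkd1, with 1 or 2 early reads, passed the filter only through the late libraries and had to rise. Without any 1 of the 4 late libraries they were not tested, and the list median of 1.20 was 0.38 to 0.43. Among the ligands, Wnt6 rose by 4.46 ± 0.52 (5.07 without X18 day 2) on the log2 scale and Wnt3 went from 2 reads to 98, a ratio of 48.1 (95% counting interval 12.95 to 402). The targets Sp5 and Nkd1 went from 1 and 2 reads to 39 and 22, and Axin2, a target and feedback inhibitor, rose by 2.25 ± 0.48. Notum, a secreted Wnt inhibitor that is also a target, was at 20.4, 39.5, 57.9 and 48.8 RPM early and at 5, 6.75, 2.57 and 4.35 RPM late, -3.14 ± 0.40.

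Within the cell cycle list, 4 of 18 genes rose and 5 fell. Myc was at 0.704, 3.39, 0.998 and 0 RPM early and at 26, 59.7, 12.8 and 40.9 RPM late, 4.65 ± 0.55, whereas its relative Mycn was at 129, 233, 175 and 208 RPM early and at 39, 30.6, 20.6 and 24.4 RPM late, -2.71 ± 0.25. The members of this gene family thus moved in opposite directions in both lines, and did so after quantile normalization. The cyclin-dependent kinase inhibitors Cdkn1b and Cdkn2b rose by 1.63 ± 0.30 and 1.61 ± 0.42, and Trp53 (p53) and Pcna, a clamp of the replication fork, fell by 1.69 ± 0.22 and 1.43 ± 0.21 on the log2 scale.

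Of 18 glycolysis genes 5 rose, 1 fell and 12 were not called, beside 25.1% higher and 12.6% lower over all genes tested. Slc2a1 (GLUT1) was at 500.8, 870.3, 662.4 and 999.8 RPM early and at 2952, 3680, 2887 and 3324 RPM late, 2.12 ± 0.24, and the lactate exporter Slc16a3 rose by 1.82 ± 0.28 on the log2 scale. Hk1, a hexokinase, Pdk1, a kinase of pyruvate dehydrogenase, and Slc2a3 (GLUT3) rose by 1.35, 1.32 and 1.27, and were under the minimum fold after removal of the length trend (0.83, 0.82 and 0.80). Pfkp, an isoform of phosphofructokinase, fell by 2.29 ± 0.25, and Ldha, the lactate dehydrogenase of mESCs, was not called (-0.43 ± 0.19). Lysosomal genes rose in 9 of 16 tested and none was called lower. The cholesterol exporter Npc1 rose by 1.94 ± 0.27, the proteases Ctsz and Lgmn by 1.94 ± 0.30 and 1.77 ± 0.19, the hexosaminidase subunit Hexa by 1.66 ± 0.18 and Grn (progranulin) by 1.66 ± 0.20 on the log2 scale.

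The lines were compared with 2 libraries a line and period. Of the 4613 called genes 4611 had the same sign in X14 and in X18. The fold behind a call is the mean over both lines, so equal signs were largely set by the rule. The test of the difference between the lines (the line by period term) called 0 of 12211 genes (0%), with 242 at an unadjusted p under 0.05, and limma voom on the recovered reads called 0 as well, with 164 at an unadjusted p under 0.05. A difference between the lines was thus not detectable with these libraries, which does not show that the lines were alike. T, for example, rose in both lines, from no read to 46 and 34.3 RPM in X14 and 11.1 and 15.7 RPM in X18.

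**Figure D2:**
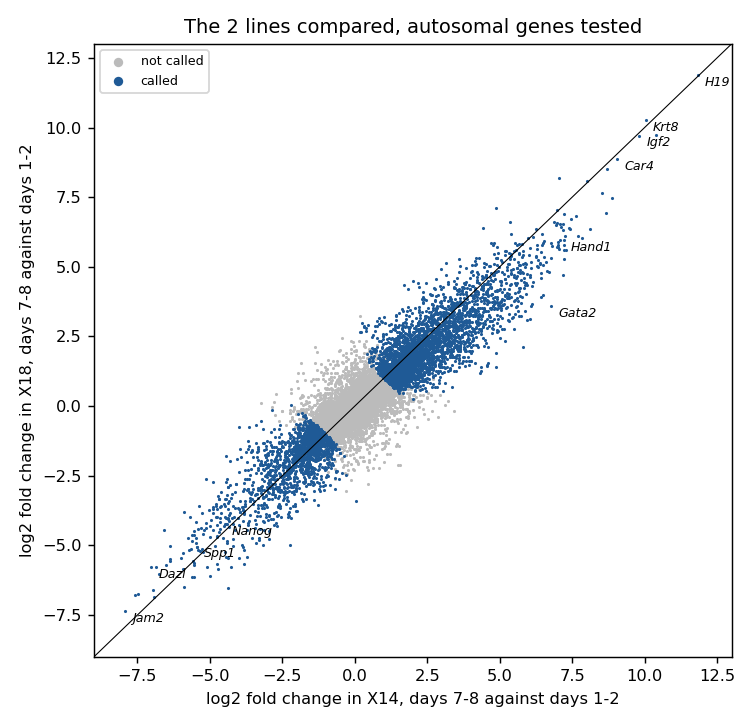
Log2 fold change of days 7 to 8 against days 1 to 2 in line X14 (horizontal) and in line X18 (vertical), with 1 point for each of the 12211 autosomal genes tested, called genes coloured and the diagonal marking equal change. The coloured points lie in the lower left and upper right corners, and H19 lies at 11.83 and 11.88.

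Tests between days of a period gave far fewer calls than the test of the periods. They had fewer libraries on each side, so a smaller count need not mean a smaller difference. Day 2 against day 1 gave 62 called genes (0.508%), with 2769 at an unadjusted p under 0.05, and day 8 against day 7 gave 95 (0.778%), with 1588 at an unadjusted p under 0.05. Both counts rested on single libraries, as day 2 against day 1 gave 0 without X18 day 2, 1 without X14 day 2 and 1161 without X18 day 1, and day 8 against day 7 gave 0 without X18 day 7 and 163 without either X14 day 1 or X18 day 1. Gene length moved with the comparison of the periods. Among the shortest genes, with exons of at most 2694 bases in all, 20.6% were called higher and 18.4% lower (median log2 fold change -0.11), among those of 2695 to 4776 bases 25.6% and 11.7% (0.21) and among those above 29.2% and 7.76% (0.46). Across genes, which are not independent replicates, Pearson's r of the log2 fold change with log exon length was 0.15 for late against early, 0.30 for day 2 against day 1 and -0.03 for day 8 against day 7. The part of length in the results was not tested beyond the removal of its trend.

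The double libraries of days 3 to 6 were not used in the comparison of the periods and give the course between them. For each called gene the share of change was set to 0 at the mean of days 1 and 2 and to 1 at the mean of days 7 and 8, on the log2 scale and per line. On day 0 the median share of genes called higher was 0.314 in X14 and -0.223 in X18. For genes called lower it was 0.141 and 0.017. In X14 the genes called higher thus stood on day 0 about where they did on day 5. Among genes called higher, the first day from which both lines stayed past 50% up to day 7 was day 6 for 48.21%, against 12.51% for day 5 and 10.49% for day 4. The lines differed on day 5, with a median share of 0.311 in X14 and 0.634 in X18, so the count for day 6 leans on X14 day 5, the shallowest double library with 612872 reads in genes. Among genes called lower, day 7 was first by this measure for 34.54% and day 6 for 26.64%. Their median share was already 0.639 in X14 and 0.787 in X18 on day 5, and 0.717 and 0.748 on day 6. The pluripotency genes that fell were ahead of this, with a median share on day 4 of 0.62 in X14 and 0.49 in X18, while germline genes that fell stood at 0.11 and 0.09 on day 4 and at 0.69 and 0.71 on day 6. Nanog fell from 1259 and 1338 RPM (X14 and X18) on day 3 to 196 and 230 RPM on day 4. Pou5f1 was still at 1178 and 1303 RPM on day 4, and stayed past 50% of its change in both lines from day 7.

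The median share of the 7 primed genes that rose was 1.37 and 1.19 on day 4, 0.928 and 0.985 on day 5 and 1.39 and 1.38 on day 6, where 1 is the mean of days 7 and 8. Otx2, a homeobox factor of the formative state, was at 272.9 and 306.9 RPM on day 4, against 11.9 to 54 RPM in the 4 late libraries. Pou3f1 was at 145.2 and 126.7 RPM and Dnmt3b at 1240 and 1172 RPM on day 4, in both cases above all late libraries. Fgf5 was at 55.1 and 41.7 RPM on day 4, at 5.2 and 2.50 RPM on day 5 and at 74.6 and 80.2 RPM on day 6. This course went down and up again in both lines. Trophoblast and surface ectoderm genes stood at 0.38 and 0.40 on day 4 and at 0.86 and 0.82 on day 6, contractile genes at 0.25 and 0.22 and at 1.08 and 0.94, and mesoderm genes at 0.09 and -0.18 and at 0.74 and 0.64. H19 rose from 17.3 and 31.7 RPM on day 3 to 233 and 237 RPM on day 4, 454 and 651 RPM on day 5 and 3534 and 3350 RPM on day 6. T had no read in either line until day 5 and 9.61 and 9.68 RPM on day 6. Each day of a line is 1 library, so these courses were given no test.

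**Figure D3:**
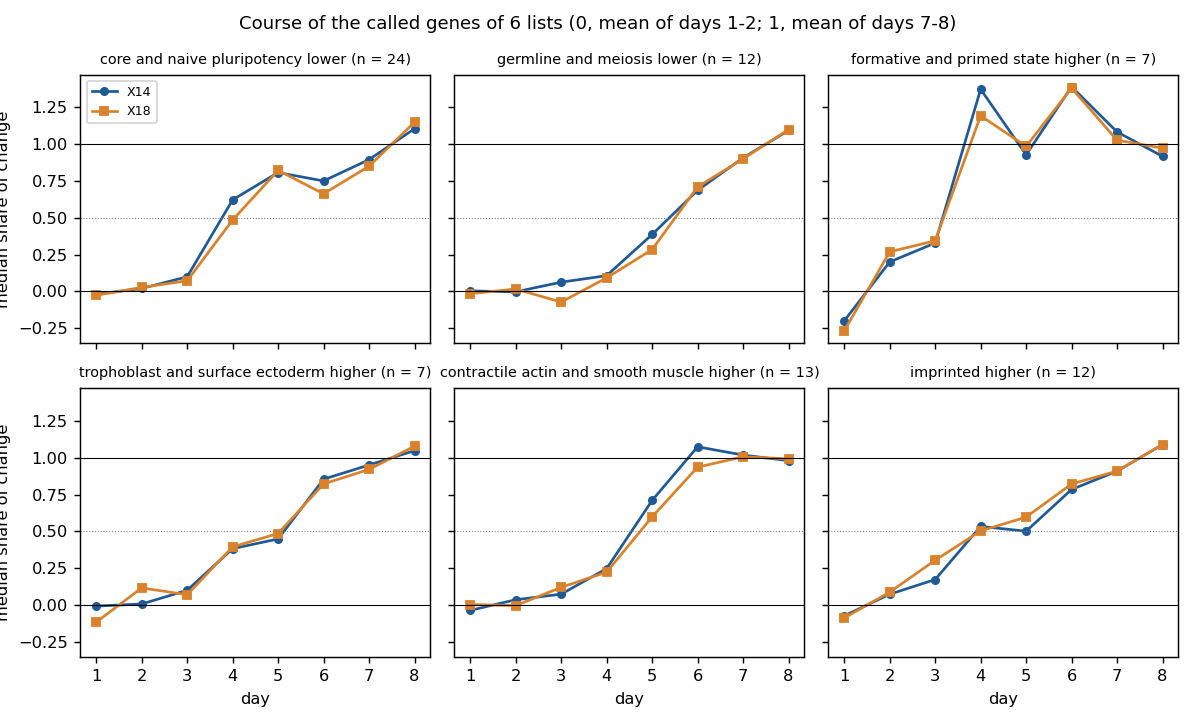
Median share of the change from days 1 to 2 (0) to days 7 to 8 (1) on each day from 1 to 8 in lines X14 and X18, for 6 gene groups in panels. The pluripotency genes that fell are at 0.62 and 0.49 on day 4, and the primed genes that rose are above 1 on that day. Day 0 is not plotted.

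The change of the double cultures was compared with that of the cultures labelled single, from the same lines and days (8 libraries), by the difference of the late against early log2 fold changes. Of 13137 genes tested 285 were called (2.17%), with a more positive change in double for 210 and a more negative one for 75, and the count was 135 to 345 when 1 library was left out. It was 168 without X14 single day 1, 173 without X14 single day 2, 135 without X14 single day 7, 140 without X14 double day 8, 151 without X18 double day 1, 164 without X18 single day 2 and 184 without X18 single day 8. In 116 of the 285 genes the 2 labels changed in opposite directions. Among the 5 genes with the smallest adjusted p was Tcstv1, of a set of genes that is on for a short time at the 2-cell stage of the embryo and in rare mESCs. It was at 2.82, 0.377, 0.998 and 1.92 RPM early and at 18.49, 15.06, 15.42 and 30.46 RPM late in double, and at 4.19, 4.66, 7.55 and 3.98 RPM early and 0, 0, 0.717 and 0 RPM late in single, a difference of 6.77 ± 0.71 on the log2 scale (adjusted p = 8.67e-05), and 6.18 without X14 double day 2. The labels thus did not overlap late, and changed in opposite directions. CT485612.1 (5.47 ± 0.46, adjusted p = 1.59e-05), Gm13109 (6.63 ± 0.62), AC238940.3 (6.25 ± 0.60) and AC231112.2 (4.87 ± 0.51) were the other 4, and are not in the list of the 2-cell stage described next. Zscan4c, a zinc-finger gene of the 2-cell stage, was at 2.11, 1.88, 2.99 and 2.87 RPM early and at 10.5, 12.46, 10.28 and 13.06 RPM late in double, and fell from between 3.23 and 15.55 RPM to 0.884 RPM or less in single. Many genes of the 2-cell stage have near-identical copies, and the split of reads among the copies is uncertain. Nanog fell further in double than in single (-4.36 against -2.30, a difference of -2.06, adjusted p = 0.0077), and the T-box factor Tbx3 fell less in double (a difference of 1.78, adjusted p = 0.020). These were the 2 genes called between the labels of 27 in the pluripotency list, whose median was -3.15 in double and -3.62 in single. Tbx3 was not called without the replicate block (1.78), X14 single day 1 (1.63), X14 single day 7 (1.72) or X14 double day 8 (1.64).

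A list of 21 genes of the 2-cell stage was drawn up after these values had been seen and is a description only. Of 15 tested in double 14 rose, beside 25.1% called higher over all genes tested. Dub2a, Tdpoz1, Tdpoz3, Zscan4e and Tcstv3, with 0 to 2 early reads, passed the filter only through the late libraries and had to rise. Of 16 tested between the labels 14 were called with a more positive change in double and none with a more negative one. Over all genes 2.17% were called between the labels. In double the sum of 18 genes of the list fell from 31.7 (X14) and 25.9 RPM (X18) on day 1 to 4.03 and 2.82 RPM on day 4. It was at 94.98 and 78.1 RPM on day 6, 172 and 138 RPM on day 7 and 134.5 and 147.1 RPM on day 8. In single it fell from 74.38 and 59.28 RPM on day 1 to 3.703 and 6.198 RPM on day 6 and to 0.486 and 0 RPM on day 8. On day 0 the sum was below that of day 1 in all cultures, at 13.42 and 6.166 RPM in double and 6.483 and 28.17 RPM in single. From day 6 the double libraries lay above all single libraries of the same day, in both lines.

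**Figure D4:**
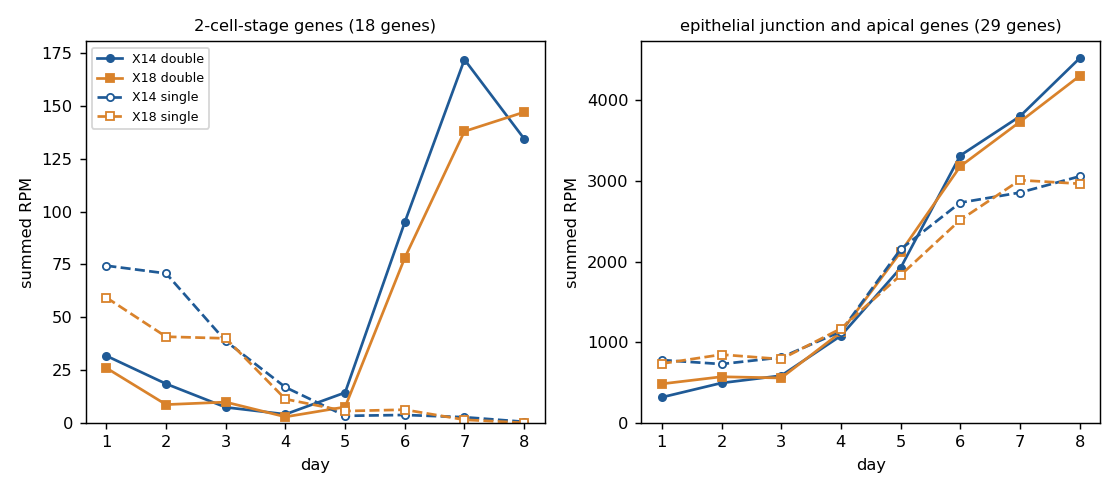
Summed level in RPM of 18 genes of the 2-cell stage and of 29 epithelial junction and apical genes on days 1 to 8, in the double and single cultures of lines X14 and X18, with 1 point for each library. The 2-cell-stage sum is 134.5 and 147.1 RPM in double on day 8 and 0.486 and 0 RPM in single.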

How the data were processed

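RNA was measured by single-end RNA-seq in the cultures of 2 lines, with 1 library for each line, label and day. The authors trimmed the reads with trim_galore, aligned them to mm10 with TopHat2 2.0.12 or hisat2 and counted them in SeqMonk, and the strand setting and the annotation version are not given in the sources used here. The deposited values are log2 RPKM, although the table is named as log CPM, and a gene without reads was written as 0.9 read. From the step of 1 read, 100% of the values came out as whole reads (tolerance 0.02), and RPM is these reads per 1e+06 of the library's divisor.

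Deposited log2 values were tested with limma 3.58.1 (R 4.3.3), two-sided, with period and line (the replicate block, since the replicate number marks the line) and a trended prior, over genes with at least 1 RPM in at least 4 of 8 libraries. P-values were adjusted by Benjamini-Hochberg over all genes tested, X-linked genes included. Folds are on the deposited scale. With no read in a period, the fold is a bound against 3 reads over the group, and with 1 to 3 reads it is a ratio with a 95% counting interval, which covers counting error only. Named were the 12 largest rises and falls that did not overlap between periods and had a mean of at least 10 RPM in the higher one, up to 6 called genes a list with the largest change and defining members that were not called, and 5 genes of the comparison with single; certain genes that this rule names are not reported here. Lin28a, Cdh1, Vim, Plagl1, Rec8, Sycp3, Sox2, Otx2, Zscan4c, Tie1, Nanog and Tbx3 between the labels, the 2-cell-stage and epithelial lists and the motifs were chosen after their values or sequences were seen. The members and all lists were chosen with earlier results of these data known. Alternatives were other normalizations, filters, fits, leaving out each library, and removal of the length trend, which was chosen after the data were seen. Promoters are from a RefSeq table (GRCm38.p6). The scripts were tested on simulated data.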

Additional observations from a re-analysis of the deposited data

Results flagged for a closer look

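In 11 of 248 groups of 4 double libraries (4.44%) 1 library lay far from the other 3 by Dixon's criterion, which chance gives in about 1 in 20 groups. Among the late libraries, X14 day 8 was the highest for Pdgfrb (19.21 RPM, the nearest 10.28) and Plagl1 (27 RPM, the nearest 14.57). X14 day 7 was the highest late library for Eomes (14.5 RPM, the nearest 4.153), Dusp4 (23.99 RPM, the nearest 10.44) and Axin2 (26.49 RPM, the nearest 10.9), and the lowest for Cldn4 (535.8 RPM, the nearest 606.7). X18 day 8 was the highest late library for Dusp5 (59.18 RPM, the nearest 36.86), AC231112.2 (18.28 RPM, the nearest 9.497) and Ap1m2 (138.4 RPM, the nearest 109), and the lowest for Tet2 (3.481 RPM, the nearest 16.5). Among the early libraries, X14 day 2 was the lowest for Spp1 (1498 RPM, the nearest 1723).

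For 25 genes named here the late against early change differed between double and single by the test of the difference itself (limma, adjusted p over all genes). Over all 13137 genes tested 285 were called (2.17%). Some of the 25 were named because this test called them, and others after their values were seen, so the count is partly set by the choice of genes. The difference, double minus single on the log2 scale, was above 0 for CT485612.1 at 5.475 (adjusted p = 1.592e-05), Gm13109 at 6.632 (adjusted p = 3.55e-05), AC238940.3 at 6.254 (adjusted p = 4.12e-05) and AC231112.2 at 4.873, and for the 2-cell-stage genes Tcstv1 at 6.769, Zscan4c at 5.52 and Zscan4d at 5.524. It was above 0 for the epithelial genes Cldn4 (1.459), Ap1m2 (2.89), Lsr (2.72), Myh14 (4.941), Arhgef16 (2.959), Prss8 (2.514) and Cldn7 (2.284), and for Pecam1 (2.541), Tie1 (3.421), Grn (1.214), Gsn (2.646), Tpm2 (2.782) and Tbx3 (1.782). It was below 0 for Asz1 (-3.961), Nanog (-2.062), Pramel7 (-2.771), Pramel6 (-3.011) and Tex19.2 (-2.477). The adjusted p of the genes without one above ranged from 8.67e-05 (Tcstv1) to 0.0262 (Tpm2). Pramel6, Pramel7, Prss8, Tex19.2 and Gsn were not called by limma voom (-2.86, -2.33, 2.52, -1.31 and 2.35). Cldn7 was not called without X14 single day 7 (2.30) or X14 double day 8 (2.13), and Tbx3 was not called without X14 single day 1 (1.63), X14 single day 7 (1.72) or X14 double day 8 (1.64). Gsn was not called without any 1 of X14 single day 2 or 7, X14 double day 8, X18 double day 1 or 8 or X18 single day 2 (2.23 to 2.56), and Tpm2 was not called without any 1 of X14 single day 7, X18 single day 2 or 8 or X18 double day 8 (2.36 to 2.87).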

How the results depend on the processing

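Under the alternatives 75 counts of called genes stayed within 1.5 times the reported count and 39 did not. Late against early gave 4613 calls, 2231 with a minimum log2 fold change of 2, 2871 in line X18 alone and 3795 to 4608 without 1 library. Without the replicate block it gave 4584, so the paired fit moved it little. Double against single (285) gave 188 with a minimum of 2, 218 without the replicate block and 135 to 345 without 1 library. Day 2 against day 1 (62) gave 24 with a minimum of 2, 1 after quantile normalization, 23 with the length trend removed, 519 by limma voom, 18 with no filter, 221 with a mean of at least 10 RPM, 151 with a deposited value of at least 0, 2 with reads thinned to one depth, 8 without the replicate block and 0 to 1161 without 1 library. Day 8 against day 7 (95) gave 34, 381 by limma voom, 38 thinned, 17 without the replicate block and 0 to 163 without 1 library. The difference between lines gave 0 throughout.

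Of the named genes' late against early values, 1753 kept direction and side of the threshold, 28 lost their call, 6 gained one and 5 changed sign. The sign changed for Eomes, -0.30 after quantile normalization and -0.05947 (without X14 day 7) to 0.88 without 1 library, and for Cdh2, 0.13 by limma voom and -0.55 to 0.54 without 1 library, with 0.54 without X18 day 1 and 0.21 without X18 day 8. The median of the endoderm factors was -2.665 to 2.21 without 1 library, and below 0 without any 1 of the 4 late libraries, since Dab2 and Foxa2 were then not tested. That of DNA methylation was -0.22 with the length trend removed and -0.02788 (without X14 day 1) to 0.34 without 1 library, and the cause was not tested. Fitted folds of genes with few or no reads in a period, which depend on the value written for no read, moved by over 1.5 times by limma voom or quantile normalization and kept their call, as for Fgf5 (5.72, with 6.59 by limma voom and 5.01 after quantile normalization). Between double and single, 500 values of named genes kept direction and side and 21 lost their call.

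With 856953 reads in genes in the shallowest of the 8 libraries, levels under 1.13 to 2.99 RPM cannot be told from 0. Each line gave 2 libraries a period and 2 lines were used, so the p-values cover days within these lines only.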

Other observations

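The epithelial junction and apical genes come from a list drawn up after their values had been seen. In the double cultures 26 of 27 tested rose (median log2 fold change 4.19), beside 25.1% called higher over all genes tested. Grhl1 was not called (0.85 ± 0.57). Marveld3 and Rab25, with 0 and 1 early reads, passed the filter only through the late libraries and had to rise. The summed level of the 29 listed genes in double went from 316.3 RPM in X14 and 482.8 RPM in X18 on day 1 to 4520 and 4301 RPM on day 8. In single it went from 777.9 and 734 RPM to 3056 and 2965 RPM. On day 0 it was 920.3 and 242.5 RPM in double and 496.8 and 604.4 RPM in single. The late against early change was called more positive in double for 13 of 27 tested, with none called the other way, beside 2.17% called over all genes. Cldn4, a claudin, was at 42.3, 42.9, 51.9 and 59.4 RPM early and at 536, 607, 607 and 617 RPM late in double, and at 56, 75.4, 79.8 and 94.4 RPM early and 288, 297, 379 and 374 RPM late in single. The double libraries were the higher ones late. Myh14, a nonmuscle myosin heavy chain, was at 69.4 to 125.6 RPM late in double and at 13.1 to 39.8 RPM late in single, with early means of 3.16 and 16.4 RPM, so that the labels differed in both periods, and the difference in log2 fold change of 4.94 was 4.22 without X14 double day 1. For Ap1m2, a sorting adaptor of polarized epithelia, the late means were 115 RPM in double and 120 RPM in single and the early means 0.532 and 7.62 RPM, so that the difference between the labels lay in the early libraries.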
